A study of Sus scrofa domesticus with 150 samples.

Results

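The genes described here are 8 components of the growing hair follicle: the inner root sheath keratins KRT27, KRT28, KRT71 and KRT73, the hair shaft keratins KRT31, KRT35 and KRT85, and trichohyalin (TCHH), which binds and hardens keratin filaments in the inner root sheath. They were found by symbol among the 30461 genes of the count table, and they take up 9 rows because KRT35 has 2. Their levels were followed in 150 samples of porcine skin and wound tissue. The samples came from 6 female Yorkshire-mix pigs that carried full-thickness excisional wounds on the back under dressings, with no other treatment. The groups were excised skin on day 0 (1 sample per animal, n = 6) and the edge and the center of 72 wounds on 14 days. There were 6 samples per location on each of the first 10 days sampled, up to day 13, and 3 on each of the last 4. Animals 1, 2 and 3 were sampled on days 1, 3, 5, 7, 11, 15 and 21, and animals 4, 5 and 6 on days 2, 4, 6, 9, 13, 16 and 19. Wound samples were small punch biopsies, whereas the day 0 sample was the excised skin itself, so the amount of tissue differed. The same wound positions were used in all animals of a day, and each position was used on 1 day in each set of animals. Within a set, day and position cannot be told apart, and between the sets, day and animals cannot be told apart.

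A hair follicle is a downgrowth of the epidermis. During growth, matrix cells at its base divide and move up, and form the hair shaft in the middle and the inner root sheath around it. The inner root sheath guides and moulds the shaft and breaks down before the hair leaves the skin. A resting follicle has no active matrix, so these transcripts mark growing follicles and not follicles as such. Full-thickness wounds of adult mammals usually close with epidermis and scar and without new follicles, so that follicle transcripts serve as a landmark of old skin. The comparisons asked where that landmark lay at the wound edge, and whether any of it returned in the center by day 21.

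Levels are given as CPM, a gene's share of all reads counted on genes in a sample, scaled to a fixed total. Total counts per sample ranged from 13133379 to 24895572, so that 3 counts, taken as the floor, correspond to between 0.121 and 0.228 CPM. This covers counting error only. The edge or center label went against the epidermal genes in 2 samples of day 3: sample 4 of the center held 32165 CPM of the interfollicular epidermis list and sample 6 of the edge held 37.2 CPM. The median was 41181 CPM over the day 3 edges. Center sample 5 of day 1 was also rich in epidermal RNA, with 20066 CPM of this list. The other centers of day 1 lay between 142 and 481 CPM. Edge and center of the same wound had the highest correlation of 72 wounds for day 3 sample 4 (r = 0.994 over 14081 genes) and the second highest for day 3 sample 6 (r = 0.986).

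Before wounding, 5 of the 6 skin samples were rich in follicle RNA and 1 was nearly empty of it. The 8 genes together took 1.16%, 1.30%, 1.65%, 0.440% and 1.21% of the counts in animals 1, 3, 4, 5 and 6, but 0.00295% in animal 2. On the log2(1 + CPM) scale the sum was 11.96 ± 3.51 (SD, n = 6). The spread therefore came mainly from 1 library. Edge samples of animal 2 reached 7030 CPM in sum and 6 of its 12 edge samples held follicle RNA. In bulk tissue, fewer follicle cells and less follicle RNA per cell cannot be told apart.

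Compared per kilobase of gene length, the inner root sheath pair KRT71 and KRT27 stood highest on day 0. KRT71, the basic keratin of the sheath, had 1506 ± 917 CPM per kilobase (SD, n = 6), and KRT27, its acidic partner, had 1146 ± 696. The shaft keratin KRT31, found in the cortex, had 482 ± 373, KRT85, a basic keratin of matrix and cuticle, had 316 ± 264, TCHH had 293 ± 187, and KRT35, an acidic keratin of matrix and cuticle, had 179 ± 146. KRT28 (23 ± 17.3) and KRT73 (19.7 ± 15.1) were the lowest. The SDs hold the low sample of animal 2, and KRT85 and TCHH differed by less than their SDs. In each of animals 1, 3, 4 and 6, KRT28 and KRT73 lay far below the other 6 genes. The second, shorter row of KRT35 (495 bases, against 840) had 60.6 ± 49.0 CPM per kilobase.

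**Figure D1:**
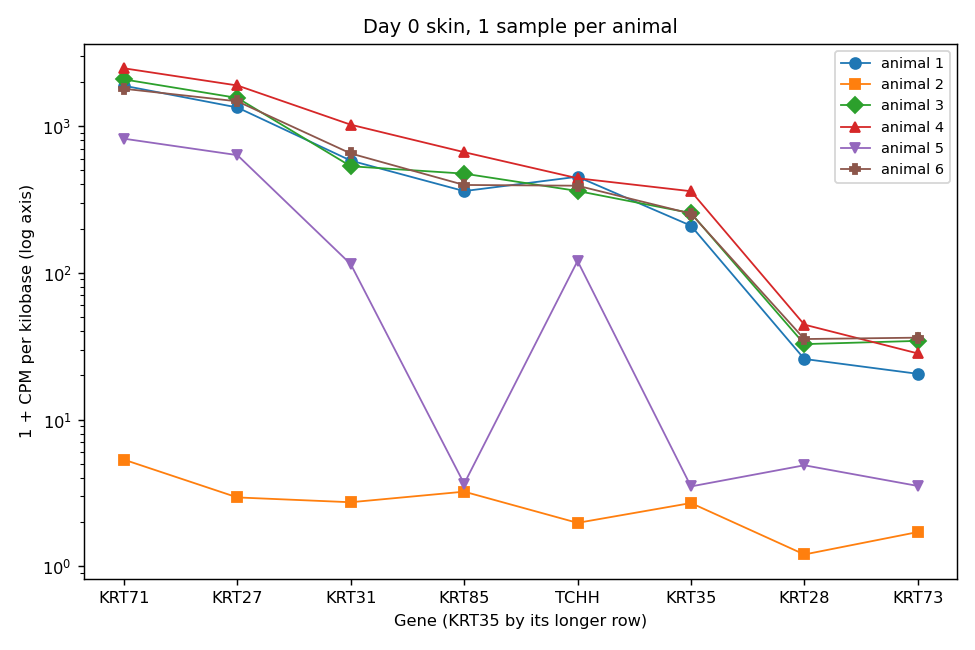
Each line joins the 8 genes in the day 0 skin sample of 1 animal, and the vertical axis gives 1 + CPM per kilobase on a log scale. Animals 1, 3, 4 and 6 have similar profiles in which the order of TCHH and KRT85 and that of KRT28 and KRT73 varies, animal 2 lies below 5 CPM per kilobase for all genes, and animal 5 drops at KRT85 and KRT35.

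The gene models limit what these rows measure. KRT27 spans bases 1733682 to 1766469 of its contig on the minus strand and encloses KRT26 (1747787 to 1754425), and the protein match in its description is KRT25, which has no row of its own. KRT28 lies beside it at 1774786 to 1784867. KRT73 (1979609 to 1990252) and KRT71 (2041922 to 2051575) share another contig, and KRT31 (163765 to 168734) and KRT35 (206308 to 209118) yet another, whereas KRT85 (112016 to 120154) and TCHH (602709 to 605921) lie apart. The genome build is not given in the sources used here. All of these keratins have close relatives next to them, so reads that fit several copies may have been split, and the value listed for KRT27 may hold those of KRT25.

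Animal 5 separated the sheath from part of the shaft. Its day 0 sample had 2130 CPM of KRT27, 1897 of KRT71, 183 of KRT31 and 167 of TCHH, but 6.94 of KRT85 and 2.10 of KRT35. In animals 1, 3, 4 and 6 KRT85 lay between 939 and 1731 CPM. Per kilobase, KRT85 was 0.00420 of KRT27 in animal 5, against a median of 0.269 over the 5 day 0 samples with at least 10 CPM of KRT27.

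The edge of a wound either held follicle RNA or lacked it. A sample was counted as holding it when at least 4 of the 8 genes reached 0.5 CPM. By this rule 34 of 72 edge samples held it, with summed levels between 38.6 and 7030 CPM (median 1054). The other 38 lay between 0 and 5.35 CPM (median 0.786). No edge sample lay between 5.35 and 38.6 CPM. The 6 day 0 samples all passed, animal 2 with 7 genes at 29.5 CPM in sum. All 8 genes reached the threshold in 26 edge samples and none of them in 24.

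**Figure D2:**
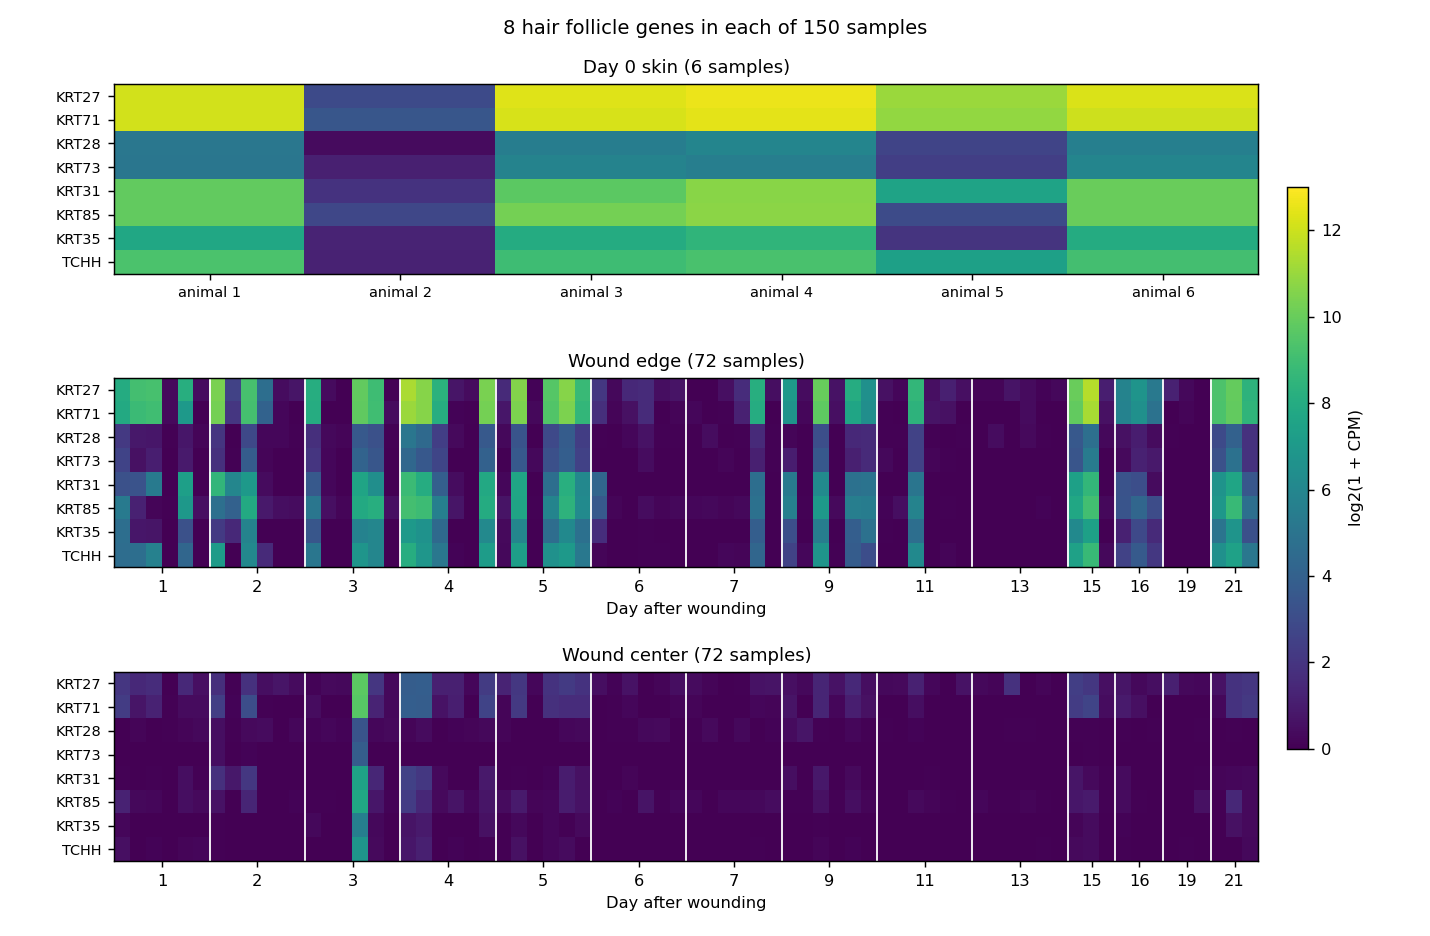
Columns are samples, ordered by day and by animal and wound within a day, rows are the 8 genes, and color gives log2(1 + CPM), with both rows of KRT35 summed. Edge columns are either bright in most genes or dark in all. The center is dark but for day 3 sample 4 and faint columns on several days, among them days 1, 2, 4, 5, 15 and 21.

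The members followed this split with different reach. Among the inner root sheath keratins, KRT27 ranged from 0 to 2956 CPM over the 72 edges (median 1.95) and was at or above 100 CPM in 28 of them, and KRT71 ranged from 0 to 2487 CPM (median 1.01), with 27 edges at that level. KRT28 did not exceed 33.4 CPM at any edge and KRT73 did not exceed 41.8. These are levels per gene and not per length. Of the shaft keratins, KRT85 reached 552 CPM, KRT31 456 CPM and KRT35, with both rows summed, 165 CPM, and TCHH reached 428 CPM. KRT31 had no count in 35 edges and KRT35 in 36, whereas KRT27 had none in 4.

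In the center, KRT27 was the member most often seen. It had a count in all but 6 of the 72 centers and was at or above 0.5 CPM in 35, with a median of 0.467 CPM. KRT73 had no count in 68 centers, KRT35 in 54, TCHH in 49 and KRT31 in 42. Levels of 10 CPM or more were found for KRT27 and KRT71 in 3 centers each, for KRT73, KRT35, KRT85, KRT31 and TCHH in 1 each and for KRT28 in 0. The sum of the 8 genes was higher at the edge than in the center of the same wound in 61 of 72 wounds, from 56 wounds for KRT27 down to 36 for KRT35.

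The number of edges with follicle RNA changed from day to day without a steady course. It was held by 4 of 6 edges on each of days 1, 2, 4 and 5, and by 3 of 6 on day 3. The number was 1 of 6 on each of days 6, 7 and 11, 4 of 6 on day 9 and 0 of 6 on day 13. Day 15 had 2 of 3, day 16 had 3 of 3, day 19 had 0 of 3 and day 21 had 3 of 3. Summed levels reached 6147 CPM on day 4 (median 2014) and 7030 CPM on day 15, and stayed at or below 0.905 CPM on day 13 and 1.37 CPM on day 19. Pairs of days shared wound positions but not animals, among them days 5 and 6, days 7 and 9, and days 19 and 21. Within such a pair, day cannot be told apart from the set of animals. Within a set of animals each day had its own positions, so day cannot be told apart there from where on the back the biopsies lay. All 6 animals gave edges with and without follicle RNA: it was held by 6, 6, 6, 7, 5 and 4 of the 12 edge samples of animals 1 to 6.

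Ranked by the mean of log2(1 + summed CPM), day 0 skin (11.96) was followed by the edges of day 21 (10.59), day 15 (8.62), day 4 (7.98), day 5 (7.92), day 16 (7.12), day 1 (6.77), day 9 (6.46), day 2 (6.07) and day 3 (5.59). Within-state SDs were between 4.37 and 6.03 for the edges of days 1 to 5, 9 and 15, larger than the steps between them, so these neighbours do not differ beyond their spread. The lowest of the 29 states was the edge of day 13 (0.49 ± 0.28, SD, n = 6), below its own center (0.53 ± 0.69). The edge of day 19 (0.56 ± 0.63, n = 3) lay just above both.

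The edges of days 13 and 19 lacked follicle RNA but held epidermal RNA. On day 13, when no edge held follicle RNA, the summed level of the interfollicular epidermis list (KRT1, KRT5, KRT10 and others, 10 of 14 genes found) at the edge lay between 17181 and 54434 CPM. On day 19 it lay between 29065 and 50918 CPM, against 28935 to 79078 CPM on day 0.

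Each gene was compared between edge and center within a day with the quasi-likelihood test of edgeR, and p was adjusted by Benjamini-Hochberg across every gene tested. Of the 112 combinations of 8 genes and 14 days, 34 passed the filter on low counts and 25 were higher at the edge (adjusted p below 0.05). None was lower. Over the 14 days 12.5% of all gene tests were called higher at the edge. A combination in which only 1 location is high passes this filter through that location, so the share of the tested combinations that was called is no result. The days with calls were 1, 2, 4, 5, 9, 16 and 21. The wound as replicate block gave 32 calls, and the fit of all samples together gave 59.

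On day 1 KRT27 and KRT71 were tested and both were higher at the edge, where 24% of all genes were. The mean of KRT27 was 282 CPM in edge samples against 1.58 in center samples, a log2 fold change of 7.53 ± 1.65 (SE, adjusted p = 0.00301). On day 2 KRT27, KRT71, KRT31 and KRT85 were called, against 17.8% of genes; with counts summed per animal, 2 of 5 tested members were. The number of calls does not rank the days, since without the filter all 8 genes were called on each of days 1, 4, 5 and 21. On day 4 all but KRT28 and KRT73 passed the filter and were called, against 16.4% of genes. TCHH rose there from a mean of 0.344 CPM in the center to 94.0 at the edge (8.07 ± 1.69, adjusted p = 0.00319) and KRT35 from 0.289 to 43.2 (7.22 ± 1.57, adjusted p = 0.0041). On day 5 KRT27, KRT71 and KRT85 were called, against 20.3% of genes, and on day 9 KRT27 and KRT71, against 17.3%.

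On days 3, 6, 7, 11, 13 and 19 no member passed the filter, so there was no test and the count of 0 carries no information. The shares of all genes called higher at the edge were 0%, 10.3%, 20.4%, 20.6%, 16.6% and 0% on those days. Without the filter all 8 genes were tested on days 3, 6, 7 and 11, 5 on day 13 and 6 on day 19. Calls were then 4 on day 7 and 5 on day 11, where 1 edge of 6 held follicle RNA, and 0 on the other 4 days. The shares of all genes given above belong to the fits with the filter, and those of the fits without it are not given.

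On day 15 the edge had 1041, 2956 and 1.13 CPM of KRT27, and the center had 4.37, 3.37 and 0.462. The first 2 wounds stood far above all centers and the third did not. KRT27, KRT71, KRT31 and KRT85 passed the filter and none was called (adjusted p from 0.0551 to 0.073), while all 4 had an unadjusted p below 0.05. The wound as replicate block called 2 of the 4, and DESeq2 called all 4. The share of all genes called was 7.55%. Without day 15 sample 3, 7 genes were called.

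On day 16 the edges held little follicle RNA, but all 3 held some. KRT27 was 56.1, 105 and 37.4 CPM at the edge and 0.639, 0.224 and 0.417 CPM in the center, and the locations did not overlap. KRT27 (7.28 ± 0.60, adjusted p = 0.0131), KRT71, KRT35, KRT85 and TCHH were called, against 4.21% of all genes. The calls rest on 3 wounds: without sample 1 there were 4, and without sample 2, without sample 3 or in the fit of all samples together there were 0.

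On day 21 follicle genes were among the few genes called between edge and center, with 3 samples per location. Of 14621 genes tested, 10 were higher at the edge (0.0684%) and 0 were lower, with 1269 at an unadjusted p below 0.05. KRT27, KRT71 and TCHH were 3 of these 10. The others were KRT74 and KRT75, keratins of the inner root sheath and the companion layer, PRR9, CRABP1, FABP9, SERPINA1 and ADCY2. SERPINA1 and ADCY2 were in no list and were named after their values were seen. KRT27 was 653, 986 and 342 CPM at the edge and 0.559, 2.72 and 3.14 CPM in the center (8.29 ± 0.73, adjusted p = 0.029). TCHH was 91, 172 and 35.1 CPM at the edge and 0, 0 and 0.209 in the center (10.28 ± 0.99, adjusted p = 0.0298). The other 5 members were tested and not called, with adjusted p between 0.0921 and 0.185. For KRT73, whose 3 centers had no count, the edge mean was at least 74.8-fold higher, taking 3 counts per library as the floor. With the wound as replicate block, and with DESeq2, all 8 were called. Without sample 1, without sample 2 and in the fit of all samples together there were 0.

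**Figure D3:**
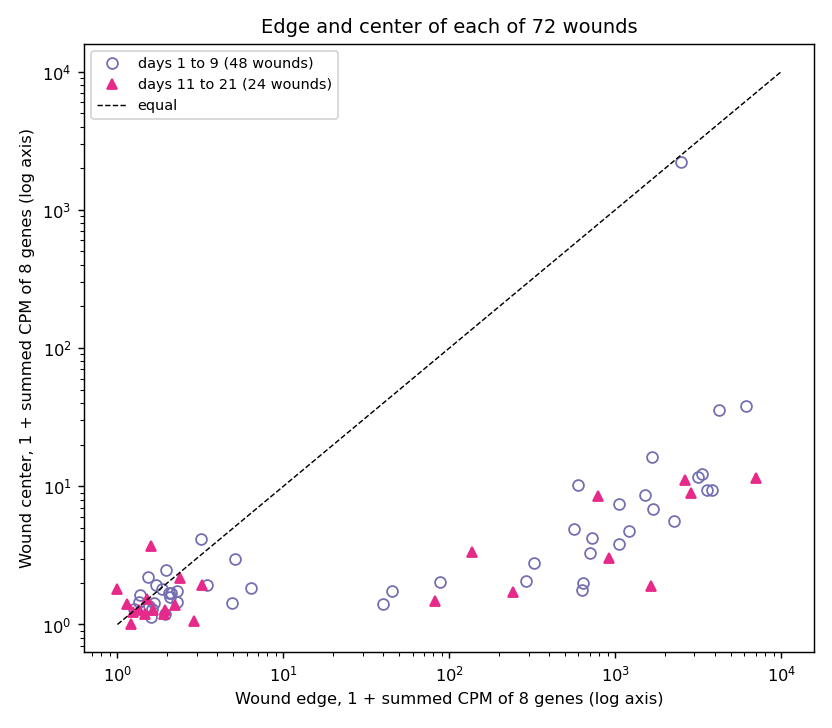
Each point is 1 of 72 wounds, with 1 + summed CPM of the 8 genes at the edge on the horizontal log axis and in the center on the vertical log axis, and the dashed line marks equal levels. Wounds fall into a group near 1 on both axes and a group far below the line, and 1 point, day 3 sample 4, lies close to it.

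Members were called lower in the center than in day 0 skin on all 14 days, day 21 included. The tissue of the early centers differed too: on days 1 to 9 the epidermis list had daily medians between 81.6 and 320 CPM there, against 54357 CPM on day 0. Single centers lay far higher, with 20066 CPM in sample 5 of day 1 and 32165 CPM in sample 4 of day 3. The adipocyte list had a median of 10370 CPM in the day 1 centers and 1552 in those of day 9, against 660 on day 0, and the skeletal muscle list, with medians of 12.2 CPM or less on days 1 to 9, reached 74540 CPM in a center of day 2, against at most 18.9 on day 0. Their part in the result was not tested. Against day 0, 98 of the 112 combinations of gene and day were lower in the center and 0 were higher, in a comparison in which 29.9% of all gene tests were called lower. A gene that is high on day 0 alone passes the filter through those samples. The share of tested combinations called is therefore no result, and a higher call could hardly arise. All 14 days share the same 6 day 0 samples. The shares of all genes were 32.1%, 29%, 30.7%, 33.9% and 36.3% on days 1 to 5, 32.2%, 35.8%, 30.6%, 32.0% and 31.2% on days 6, 7, 9, 11 and 13, and 27.0%, 27.2%, 21.1% and 20.7% on days 15, 16, 19 and 21. All 8 members were lower on days 9, 15, 16, 19 and 21. On days 1, 2, 4, 5, 6, 7, 11 and 13, 7 were lower and KRT28 did not pass the filter. Day 3 was the exception with 2 (KRT28 and KRT73), and without center sample 4 all 8 were lower. DESeq2 called 5 on that day, the fits on counts summed per animal and without TMM 1 each, and the animal as replicate block 0. With the animal as replicate block the total was 89, with 5 on day 21 and 4 on day 15.

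In many centers no read of a gene was counted. On day 19 KRT71 was at 0 counts in all 3 centers, at least 19065-fold below the day 0 mean of 3494 CPM, with 3 counts per library as the floor. On day 13 it was at 0 in all 6 (at least 18040-fold). KRT31 was at 0 in the 6 centers of day 7 (at least 4089-fold below day 0) and day 13 (at least 4017-fold), and TCHH in those of day 6 (at least 2201-fold) and day 11 (at least 2005-fold). KRT73 was at 0 in all centers of days 1, 4, 5, 6, 7, 9, 11, 13, 16, 19 and 21.

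On day 21 the 3 centers had 10, 47 and 60 counts of KRT27, 4, 47 and 66 of KRT71, 2, 3 and 4 of KRT31, 0, 30 and 5 of KRT85, and 0, 9 and 5 of the longer KRT35 row. These were the levels of a trace: against day 0, KRT27 had a log2 fold change of -10.68 ± 1.95 (SE, adjusted p = 0.00165), TCHH of -12.18 ± 2.13 (adjusted p = 0.00129) and KRT85 of -10.14 ± 2.40 (adjusted p = 0.0068). Whether the trace grew was asked by comparing the centers of days 19 and 21 with those of days 11 and 13. No member passed the filter there, by edgeR or DESeq2, and 14.6% of all genes were called higher late. Without the filter KRT71 (4.62 ± 1.12, adjusted p = 0.00683), KRT31 (3.09 ± 0.77, adjusted p = 0.00818) and KRT35 (4.28 ± 1.23, adjusted p = 0.0413) were called higher late. The share of 14.6% belongs to the fit with the filter. KRT71 and KRT35 were at 0 in all centers of day 19, so the late counts of these genes came from day 21 alone. KRT31 reached 0.0611 CPM in the day 19 centers. The mean of KRT71 in the centers was 5.65 CPM on day 4 and 3.20 on day 15, above the 2.13 of day 21.

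The trace in the center went with the edge of the same wound. By the rule of 4 genes at 0.5 CPM, 12 of 72 centers held follicle RNA, and all 12 belonged to wounds whose edge held it too. In 22 wounds only the edge held it, in 0 only the center, and in 38 neither. The 34 centers beside an edge with follicle RNA had between 0.397 and 2218 CPM in sum (median 4.25), and the other 38 between 0 and 3.14 (median 0.458). Leaving out day 3 sample 4, the center had between 0.0545% and 1.74% of the edge (median 0.374%, 33 wounds).

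Within single days the order of the centers did not always follow that of the edges. On day 5 the edges had 4.11, 3577, 0.608, 1686, 3847 and 1051 CPM in sum, and the centers of the same wounds had 2.00, 8.43, 0.290, 5.80, 8.38 and 6.44 CPM. The 2 lowest centers belonged to the 2 edges without follicle RNA. On day 4 the highest centers, with 37.3 and 34.7 CPM, lay beside the highest edges, with 6147 and 4196 CPM, but a center with 3.14 CPM lay beside an edge with 2.18 and one with 2.30 CPM beside an edge with 707. On day 21 the centers with 0.894, 7.92 and 7.54 CPM lay beside edges with 1640, 2857 and 783, so that the lowest edge did not have the lowest center. Whether these traces come from follicle cells in the center biopsy or were carried over from the edge sample was not tested.

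Day 3 sample 4 was the only center at the level of an edge. Its 8 genes stood at 2218 CPM in sum, beside 2476 at the edge of the same wound. The ratio of edge to center over the 9 rows had a median of 1.12 and lay between 0.850 and 1.26. Of 13578 genes with at least 1 CPM in both samples, 89 differed by 2-fold or more. The other 5 centers of the day had between 0.295 and 7.61 CPM.

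Edges were compared with day 0 as well, with the same 6 samples as control. Of 112 combinations 65 were lower and 0 were higher, and over the 14 days 20.7% of all gene tests were called lower. Here too a gene that is high on day 0 alone passes the filter through those samples, so the share called is no result. All 8 genes were lower on days 1, 7, 11, 16 and 19, against 23.9%, 28.1%, 23.7%, 11.8% and 16.4% of all genes. On days 6 and 13, 7 were lower and KRT28 was not tested, against 27.1% and 24.1% of genes. The count was 5 on day 9 (20.8% of genes), 3 on day 2 (22.7%), 2 on day 5 (26.6%) and 1 on day 3 (22.8%), which was 0 without edge sample 6. It was 0 on days 4, 15 and 21, when 24.2%, 5.78% and 13.0% of all genes were called. The unadjusted p was below 0.05 for 0 members on these 3 days, and DESeq2 called 0. On day 21 the log2 fold change of KRT27 was -2.38 ± 1.25 (adjusted p = 0.176) and that of TCHH -1.88 ± 1.17 (adjusted p = 0.254). These differences did not exceed the spread, to which the day 0 sample of animal 2 contributes. Without it, 4 members were called lower on day 21 and 5 on day 5, and the total was 78. The 8 calls of day 16 fell to between 1 and 3 when any 1 of its edges was left out. With the animal as replicate block there were 44 calls in place of 65. The 8 calls of days 1, 7, 11 and 16 became 4, 6, 6 and 5, day 2 had 1, and days 3, 5 and 9 had 0. With counts summed per animal day 11 had 3.

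Between the edges of days 19 and 21 and those of days 11 and 13, KRT27 alone passed the filter, with a log2 fold change of 3.54 that was not called by edgeR (4.56% of all genes were called higher late; 1 member had an unadjusted p below 0.05) or by DESeq2. With the animal as replicate block it was called (6.69 ± 1.66, adjusted p = 0.0205), but not with counts summed per animal (3.30 ± 2.11, adjusted p = 0.393). The late edges are split: the 3 of day 19 had 1.32, 0.227 and 0 CPM of KRT27 and the 3 of day 21 had 653, 986 and 342. The change of the gap between edge and center over the same days was called for neither KRT27 nor KRT71, the members tested (0 at an unadjusted p below 0.05 by edgeR, 0 called by DESeq2), while 7.97% of all genes had a gap that shrank.

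KRT27 and KRT71, which pair in the filaments of the inner root sheath, kept a nearly fixed proportion. In the 40 samples with at least 10 CPM of KRT27, KRT71 per kilobase was 1.32 times KRT27 in the median, and 80% of the samples lay between 1.19 and 1.42. TCHH was 0.247 of KRT27 in the median (0.154 to 0.338 for the same share of samples). KRT31 varied more, from 0.0678 to 0.582, KRT85 from 0.0421 to 0.535 and KRT35 from 0.00554 to 0.317. The lowest ratio of KRT71 to KRT27, 0.663, was in edge sample 5 of day 1.

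In some edges the matrix and cuticle keratins were low relative to the sheath. On day 1, edge samples 2 and 3 had 555 and 605 CPM of KRT27 and 465.6 and 510 of KRT71. KRT85 was 1.30 and 0.130 CPM and the longer KRT35 row was 0.355 and 0.582 CPM there. On day 2, edge sample 1 had 1357 CPM of KRT27 and 372 of KRT31 beside 25.4 of KRT85 and 1.93 of KRT35. Another measure was the sum of the shaft keratins against that of the inner root sheath keratins. Of the 48 samples with at least 10 CPM in sum, the shaft keratins exceeded the inner root sheath keratins in 2. These were day 2 edge sample 2, with 79.0 CPM of shaft and 8.03 CPM of sheath keratins, and day 6 edge sample 1, with 32.8 and 5.68. KRT31 led in both, with 61.8 and 18.9 CPM.

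**Figure D4:**
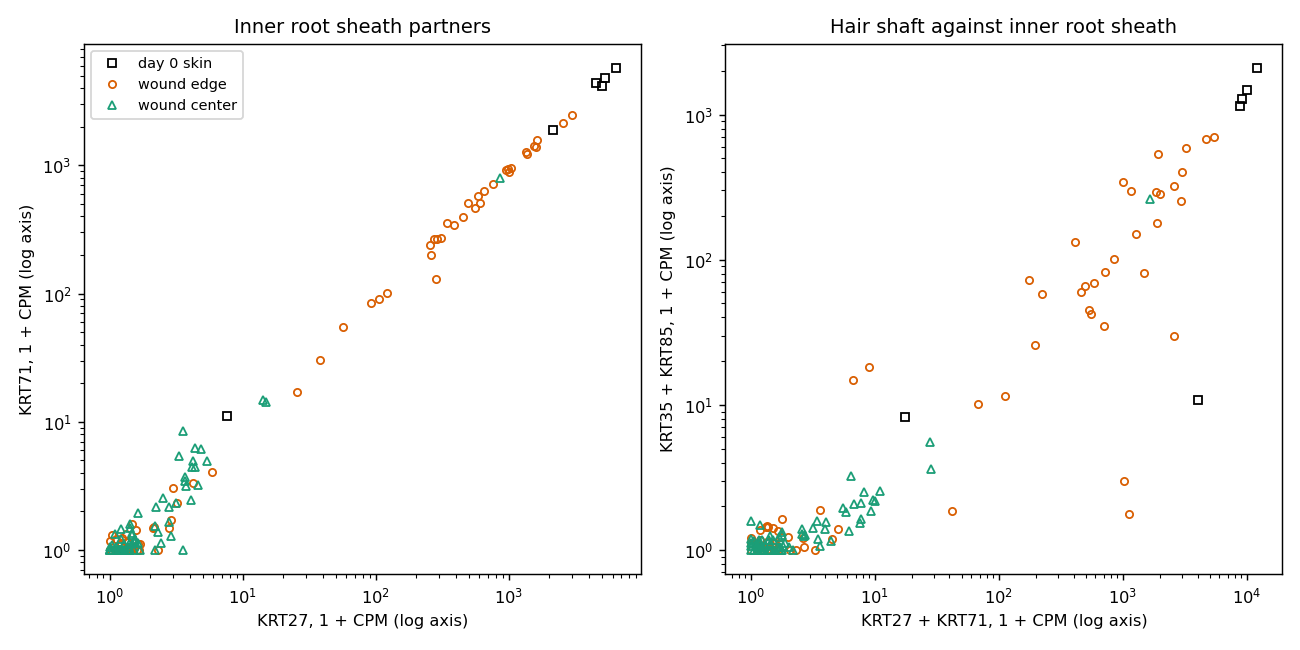
Points are the 150 samples, with 1 + CPM on log axes: KRT71 against KRT27 on the left, and KRT35 + KRT85 against KRT27 + KRT71 on the right. The left points form a narrow line from about 10 CPM of KRT27 upward. At lower levels they spread: KRT71 was 0 in all 6 centers of day 13, where KRT27 reached 2.58 CPM. On the right a few edges and 1 day 0 sample lie far below the rest.

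Over the 29 states, the Pearson correlation of the mean log2(1 + CPM) between pairs of the 8 genes lay between 0.929 and 0.999 (median 0.979, 28 pairs). The points share libraries and the same few wounds, so this is a description. The genes most like the mean of the 8, among 13357 named genes with at least 1 CPM on day 0, were PRR9 (r = 0.994), KRT74 (0.993), FABP9 (0.993), KRT75 (0.986), KRT32 (0.986), S100A3 (0.985), VSIG8 (0.984), KRT82 (0.981), KRT33B (0.979) and KRT72 (0.975). KRT72 and KRT74 are further inner root sheath keratins, and KRT32, KRT33B and KRT82 further hair shaft keratins.

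The companion genes of the sheath and shaft moved likewise. Among the other inner root sheath and companion layer genes (9 of 10 found, 10 rows), all 10 rows were lower in the center than on day 0 on day 21, with a median log2 fold change of -7.02. Of the other shaft keratins and cuticle genes (14 of 24 found, 16 rows), 13 rows were tested and 13 were lower, with a median of -9.67. Over all genes tested the median was -0.03, and 20.7% were called lower. The highest of these genes per kilobase on day 0 were KRTAP11-1, S100A3 and KRT33B for the shaft and KRT74, TGM3 and KRT75 for the sheath. KRTAP11-1, a protein of the matrix between shaft filaments, had a median of 1057 CPM on day 0 and 0 CPM over the 72 centers. TGM3, a cross-linking enzyme that the epidermis uses too, had a median of 424 CPM on day 0 and 353 CPM in the center, and was called higher in the center on 3 days and lower on 4.

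Genes of the follicle matrix list, only some of them regulators, were divided. In the center of day 21, 11 of their 17 rows were lower than on day 0 and 0 were higher (median -2.25). The 3 with the highest level per kilobase on day 0 were PRR9 (-11.22 ± 2.07, adjusted p = 0.00175), VSIG8 (-11.69 ± 1.90, adjusted p = 0.000842) and the desmosomal cadherin DSG3 (-0.56 ± 0.15, adjusted p = 0.0139), which the epidermis uses too. PRR9 and VSIG8 were also among the 10 genes most like the members (r = 0.994 and 0.984). The following regulators were named after their values were seen. SHH, a signal from the matrix, fell by 8.68 ± 2.17 on the log2 scale (adjusted p = 0.0127), HOXC13, a factor that drives hair keratin genes, by 3.62 ± 0.70 (adjusted p = 0.00225), and FOXN1 by 3.07 ± 0.55 (adjusted p = 0.00156). The cell surface receptor EDAR (-0.72 ± 0.32, adjusted p = 0.0983), WNT10A (-0.19 ± 0.25, adjusted p = 0.587) and LEF1 (-1.08 ± 0.89, adjusted p = 0.358) did not pass the test. Among follicle stem cell and outer root sheath genes 7 of 10 were lower (median -1.66). KRT5, shared with the epidermis, and TBX1 (-2.21 ± 0.25, adjusted p = 0.000101) were among them. LHX2, LGR5 and SOX9 were named after their values were seen. LHX2 fell by 8.33 ± 0.64 (adjusted p = 1.08e-05), LGR5 by 4.28 ± 0.28 (adjusted p = 4.66e-06) and SOX9 by 1.53 ± 0.24 (adjusted p = 0.000742), whereas KRT15 (-0.40 ± 0.20, adjusted p = 0.143) did not pass. For these counts, 20.7% of all genes were called lower, and 3259 of 15530 were called higher. At the day 21 edge, 6 of the 17 matrix rows (median -1.27) were also lower than on day 0. So were 8 of the 10 stem cell and outer root sheath genes there (median -1.52), against 13% of all genes. Between edge and center on day 21, 1 of 16 tested matrix rows and 0 of these 10 genes were called. Of 14 dermal papilla and dermal sheath genes in the day 21 centers, 4 were lower than on day 0 and 3 were higher. CRABP1, a retinoic acid binding protein, was among those higher, at 1.81 ± 0.42 (adjusted p = 0.00608). WIF1, an inhibitor of Wnt signals, fell by 4.33 ± 0.85 (adjusted p = 0.00256), and TRPS1 (-0.23 ± 0.27, adjusted p = 0.534) did not pass.

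The epidermis did return in the same centers. The summed level of its list in the center had medians of 117, 619, 8523, 1559 and 20233 CPM on days 7, 13, 15, 16 and 19, and lay at 41222, 47247 and 55038 CPM at day 21. The day 0 median was 54357 CPM. On day 21, 2 of its 10 genes were lower than on day 0 (KRT5 and SBSN) and 0 were higher, with a median log2 fold change of -0.15. KRT10, the keratin of differentiating epidermis, differed by 0.15 ± 0.26 (adjusted p = 0.691) and KRT1 by 0.28 ± 0.28 (adjusted p = 0.45), while all 8 follicle genes were lower.

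**Figure D5:**
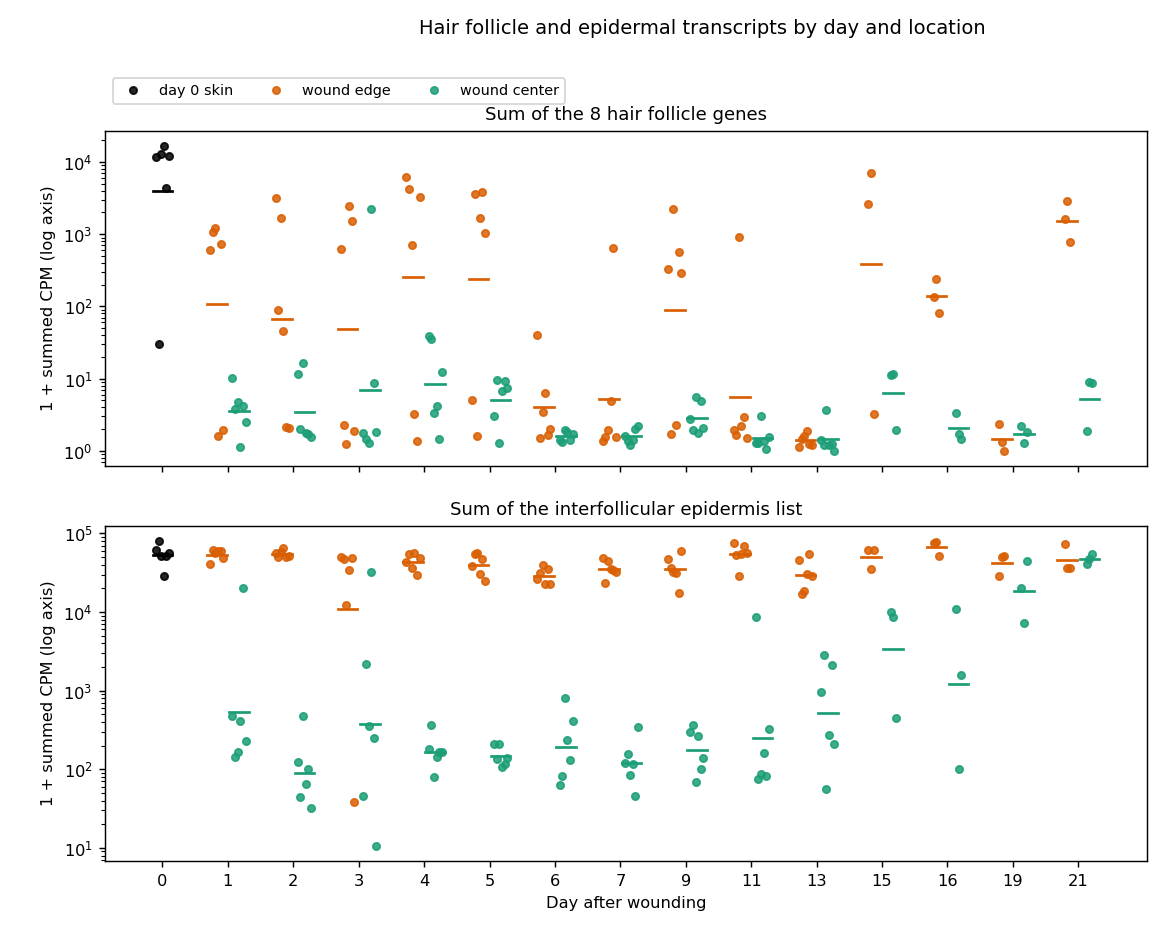
Points are samples and short bars are the means of log2(1 + CPM) per state, plotted as 1 + summed CPM on log axes by day, for the 8 follicle genes (upper panel) and the interfollicular epidermis list (lower panel). By day 21 the centers reach the edge and day 0 in the lower panel, but stay below 10 in the upper panel, where the 3 edges lie between 783 and 2857 CPM.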

How the data were processed

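RNA was sequenced from poly(A) libraries with paired reads by a provider. The authors deposited a table of raw read counts per gene for all 150 samples, with gene names, contigs and lengths. The aligner, counter, annotation and genome build are not given in the sources used here. A deposited FPKM table of the same samples was not used. Samples were grouped by day and location from the labels, which also give animal and wound, and samples within a group were numbered by animal and wound. The members and the companion gene lists were chosen with earlier results of these data known.

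CPM was computed as count divided by the total over all genes in the sample, on the usual CPM scale. Genes were tested with edgeR 4.0.16 in R 4.3.3 (TMM factors from 0.779 to 1.18, two-sided quasi-likelihood test; low genes removed by filterByExpr at min.count 10 and min.total.count 15). Calls had a Benjamini-Hochberg adjusted p below 0.05 over all genes tested, and log2 fold changes are given with their SE. Calls for KRT35 use its longer row, and sums use both rows. Each day was fitted on its own. On the first 10 days, each animal gave 2 wounds per location, so the p-values partly measure the spread within animals. Edge and center of a wound are paired by the labels, and their deviations from the group means correlated with a mean r of 0.270, above 0 in 64 of 72 wounds. DESeq2 1.42.0, fits with the wound or animal as replicate block, a fit of all samples, counts summed per animal, no TMM, no filter, and fits without single replicates were the alternatives. The fits without the day 0 sample of animal 2 were added after the data were seen.

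The text names all 8 members, the 3 genes of each companion list with the highest mean CPM per kilobase on day 0, and the 10 named genes most correlated with the members over the 29 states. Further genes are marked as chosen after their values were seen. In simulated counts for an edge against a center of 3 wounds (13471 genes), 83.3% of genes changed 4-fold and 19.7% of those changed 2-fold were recovered, and in those for 6 wounds (12779 genes) 97.0% and 58.2%. Both sides were simulated with the spread of center samples alone, so these shares do not carry over to the members, whose edges were split. Summaries and plots used Python 3.11.15, numpy 2.4.6, pandas 2.3.3, scipy 1.17.1 and matplotlib 3.10.9.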

Additional observations from a re-analysis of the deposited data

Results flagged for a closer look

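In 63 groups of 6 samples (inner root sheath keratins, hair shaft keratins and TCHH in each state of 6), the gap of the most extreme sample to its nearest neighbour, as a share of the group's range on the log2(1 + CPM) scale, was compared with Dixon's critical value of 0.625. It was exceeded in 18 groups, where chance at 1 in 20 gives 3.15. That figure holds for independent groups without a split between samples. The gene sets share libraries and the edges were split, so setting 18 against it carries no information.

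The day 0 skin of animal 2 stood below the other animals for the inner root sheath keratins (gap share 0.829; 18.1 CPM against 4037 to 12193) and TCHH (0.763; 1.37 CPM against 167 to 630). Day 3 center sample 4 stood above the other centers for the inner root sheath keratins (0.793; 1669 CPM), the shaft keratins (0.789; 441 CPM) and TCHH (0.948; 108 CPM). On days 7 and 11 a single edge held follicle RNA. Day 7 edge sample 5 stood apart for the inner root sheath keratins (0.780; 556 CPM), the shaft keratins (0.953; 66.6 CPM) and TCHH (0.946; 18.7 CPM), and day 11 edge sample 3 for the same sets (0.877, 731 CPM; 0.932, 112 CPM; 0.975, 71.8 CPM). Day 6 edge sample 1 stood apart for the shaft keratins (0.907; 32.8 CPM).

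The remaining flags concern levels near the floor. They were day 13 center sample 3 for the inner root sheath keratins (0.839; 2.65 CPM), day 6 center sample 4 for the shaft keratins (0.661; 0.588 CPM), day 13 edge sample 5 for the shaft keratins (gap share 1; 0.0986 CPM), and, for TCHH, center sample 1 of day 2 and center sample 5 of days 7 and 13 (gap share 1 each; 0.0522, 0.0584 and 0.0591 CPM), where the other samples were at 0.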

How the results depend on the processing

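No count changed direction under any alternative. The 25 calls of edge above center became 59 in the fit of all samples, 41 with counts summed per animal, 62 without the filter, and 32 with the wound as replicate block, and lay between 17 and 27 when 1 replicate of days 15 to 21 was left out. The cause was not tested, except that fewer combinations were tested under the filter. The 98 calls of center below day 0 were 89 and the 65 of edge below day 0 were 44 with the animal as replicate block, and without 1 replicate they were 98 and between 58 and 60. Members called higher late than midway were 0 in the center but 3 without the filter, and 0 at the edge but 1 with the animal as replicate block. The wound as replicate block left the change of the gap at 0 calls. The calls of day 21 between edge and center were lost without sample 1 or sample 2, and those of day 16 without sample 2 or sample 3. The 12 centers with follicle RNA became 22 at a threshold of 0.2 CPM, 5 at 1 CPM and 23 when 2 genes sufficed. The day 0 level of 11.96 became 7.55 for TCHH alone, which is part of the sum. With 3 wounds per late day, differences under 4-fold were often missed in simulated counts. These counts had the spread of center samples alone, without edges that hold or lack follicle RNA. Far larger differences were missed in the members: on day 15 the 4 tested had log2 fold changes between 8.36 and 9.07 and were not called by edgeR. Levels below 3 counts per library cannot be told from 0.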

Other observations

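Other skin appendages and tissues of the dermis were described by lists of the same kind in the centers of day 21 against day 0, where 20.7% of all genes were called lower and 3259 of 15530 higher. Of the sweat gland genes (8 of 10 found), 5 of 7 tested were lower and 0 were higher. KRT7, a keratin of glandular epithelium, fell by 6.50 ± 0.65 on the log2 scale (SE, adjusted p = 5.05e-05, edgeR) and SCNN1B, a sodium channel subunit, by 0.89 ± 0.28 (adjusted p = 0.0250), whereas the water channel AQP5 (1.03 ± 0.47, adjusted p = 0.107) did not pass. At the day 21 edge, 4 of 7 tested sweat gland rows were also lower than on day 0 (median -1.77), against 13% of all genes. Between edge and center 0 of 4 tested rows were called. The sebaceous gland list in the centers was split, with 4 of 12 rows higher and 4 lower. KRT79, a keratin of the gland duct, fell by 7.37 ± 0.58 (adjusted p = 1.31e-05). The lipid enzyme SCD (2.20 ± 0.90, adjusted p = 0.0751) and MGST1 (0.35 ± 0.72, adjusted p = 0.722) did not pass.

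Of the melanocyte list 1 of 5 tested rows was lower, a share close to that of all genes, and MITF, KIT and PMEL were not called. Of the skeletal muscle list 3 of 4 tested were lower, namely CKM (-4.13 ± 0.64), ACTA1 (-6.08 ± 1.69) and MYH2 (-6.86 ± 1.21), from a summed day 0 level of 7.36 to 18.9 CPM. Of 7 adipocyte genes LPL was higher (2.04 ± 0.67, adjusted p = 0.0319) and 0 were lower, which is near or under the shares of all genes, and ADIPOQ and PLIN1 were not called.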
